A study of Rattus norvegicus with 8 samples.

Results

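Liver gene expression with and without a single dose of an anti-miR-21 oligonucleotide, before any surgery, was compared on 4 of the 8 arrays of a rat study of alcohol and liver regeneration. The arrays were chosen by their labels. They are the arrays of liver taken at the time of partial hepatectomy (PHx, the surgical removal of 70% of the liver), called 0 h. All animals were male Sprague-Dawley rats, an outbred strain, kept either on a chronic ethanol diet or on a carbohydrate diet pair-fed to match it. The 2 treated groups, ethanol-fed AM21 and pair-fed AM21, had received AM21, an oligonucleotide with locked nucleic acid (LNA) modification that is antisense to miR-21. It was injected intraperitoneally at 7.5 mg/kg in saline 72 h before PHx. A second injection followed only after PHx and so does not bear on liver taken at 0 h. The other 2 groups, ethanol-fed untreated and pair-fed untreated, received no oligonucleotide, and no group with a saline or control oligonucleotide injection was analysed here. A group is represented by 1 array, hybridised with a pool of RNA from 3 rats (AM21) or 4 rats (untreated), and the variation among rats is therefore hidden. The AM21 and the untreated rats carry separate ranges of animal identifiers in the labels, and treatment and cohort cannot be told apart in any comparison given here.

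MicroRNAs are short RNAs that, loaded into an Argonaute protein, pair through a seed at their 5′ end with messenger RNAs and lower their stability or translation. miR-21 is made from a hairpin whose gene overlaps the end of Vmp1, and it is known for its abundance in growing, inflamed and tumour tissue and for its induction in regenerating liver. Its widely studied targets include the translation inhibitor Pdcd4, the Sprouty inhibitors of growth factor signalling and the matrix protease inhibitors Reck and Timp3. An LNA antisense oligonucleotide binds the mature microRNA and blocks it, so the readout usually sought is a modest gain of many target messenger RNAs.

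The sequence that AM21 is directed against is shown first, since the comparison turns on it. In RefSeq (assembly GRCr8) the Mir21 hairpin lies on chr10:71902600-71902691 on the minus strand. The mature sequences are printed 5′ to 3′ with the seed, bases 2 to 8, in capitals, and in the hairpin the capitals mark both mature arms.
rno-miR-21-5p: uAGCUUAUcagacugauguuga
rno-miR-21-3p: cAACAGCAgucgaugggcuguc
Mir21 hairpin: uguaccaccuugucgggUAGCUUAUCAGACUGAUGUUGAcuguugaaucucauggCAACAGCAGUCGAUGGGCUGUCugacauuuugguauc
The seed AGCUUAU was held by 1 mature rat microRNA of the RefSeq table, rno-miR-21-5p itself. The sequence of AM21 was not used here.

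The labelled tissue was checked against marker genes. On the log2 scale of the deposited values, 42 hepatocyte secreted proteins had mean levels of 10.98 and 10.93 on the ethanol-fed and pair-fed untreated arrays and 11.02 and 10.98 on the corresponding AM21 arrays. Of 19 neutrophil and monocyte markers with a probe set, 15 were under a level of 5 on all 4 arrays, among them the neutrophil genes S100a8, Mpo and Elane. These values carry no detection call, so a level under 5 is not shown to be above background, and fold differences that involve one are of uncertain size. Genes were tested when their mean over the 4 arrays was at least 5, which left 8605 of 18166 named genes.

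The first question was whether the arrays show the targeted microRNA gene itself to differ. The level of Mir21 was 5.53 on the ethanol-fed untreated array and 6.17 on the pair-fed untreated array. It was 4.93 on the ethanol-fed AM21 array and 5.16 on the pair-fed AM21 array. Both AM21 arrays thus lay below both untreated arrays, and the groups did not overlap. The diet-matched differences (AM21 minus untreated) were -0.60 and -1.01, and the fitted difference was -0.80 ± 0.17 (SE, 2 pairs of arrays), which missed the threshold after adjustment over all tested genes (limma, adjusted p = 0.502; lower in 2 of 2 pairs). The sources used here do not say whether this probe set reads the primary transcript, the hairpin or the mature strand, and mature miR-21 was not measured otherwise, so the block of miR-21 by AM21 is not checked by these arrays. Vmp1, the host gene at the same locus, encodes a membrane protein needed for autophagy. Its levels were 7.73 and 7.75 untreated and 7.84 and 7.54 with AM21 (ethanol-fed first), with pair differences of 0.11 and -0.21 in opposite directions.

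Among 38 microRNA genes that passed the level minimum, of 363 with a probe set, Mir21 had the lowest fitted difference. The median over the 38 was 0.10, against -0.01 over all tested genes. Of the 38, 14 were higher and 9 lower with AM21 in both pairs, and 15 differed in direction between the diets. Over all tested genes 22.2% were higher and 27.2% lower in both pairs. None of the 38 passed adjustment, and 7 had an unadjusted p under 0.05 (limma), against 4.49% of all tested genes. Next to Mir21 on the lower side stood Mir23b, at 5.95 and 7.12 untreated and 5.84 and 6.15 with AM21. On the higher side Mir24-1 read 4.84 and 5.01 untreated and 5.40 and 5.65 with AM21, with pair differences of 0.56 and 0.64 and no overlap. The untreated mean of Mir24-1 (4.92) was under the level minimum of 5. It entered the test only through the AM21 arrays, which favours such a difference, so the lack of overlap is no separate support. Mir346 (untreated mean 4.85), Mir29c (4.88) and Mir92b (4.99) entered in the same way. The counts over the 38, the 7 at an unadjusted p under 0.05 (limma) and the median of 0.10 include such genes. These counts and the median are no support for a difference. Mir122, the gene of the most abundant hepatocyte microRNA, read 6.56 and 6.80 untreated and 6.46 and 6.61 with AM21. These microRNA genes outside Mir21 were singled out after their values had been seen.

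The second question was whether messenger RNAs reported in the literature as miR-21 targets stood higher in livers exposed to AM21. They did not do so as a list. Of 51 names, 45 had a probe set with a single gene name and 37 passed the level minimum. Of these 37, 11 were higher in both pairs, 11 lower in both pairs and 15 differed in direction between the diets, where 22.2% of all tested genes were higher and 27.2% lower in both pairs. Their median fitted difference was -0.03, against -0.01 over all tested genes. At 1.5-fold in the same direction in both pairs 0 of the 37 passed, against 10 higher and 18 lower of all 8605 tested genes. So few genes passed that 0 among 37 says nothing about the targets. No target passed the adjusted threshold. At an unadjusted p under 0.05 limma gave 1 higher (Smad7) and 1 lower (Krit1), where 1.86% and 2.63% of all tested genes were.

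Pdcd4, the target most used as a readout of miR-21, had levels of 8.95 (ethanol-fed) and 8.86 (pair-fed) untreated. With AM21 its levels were 9.25 and 8.95. The differences of 0.30 and 0.08 were positive in both pairs, and the fitted difference of 0.19 ± 0.16 was little above its error (limma, adjusted p = 0.999). Timp3, an inhibitor of matrix metalloproteinases, showed the same order at 6.98 and 7.09 untreated and 7.18 and 7.21 with AM21, with a fitted difference of 0.17 ± 0.16. Reck, a membrane-anchored inhibitor of such proteases, went the other way, from 5.31 and 4.95 untreated to 5.29 and 4.63 with AM21. The AM21 mean of Reck (4.96) was under the level minimum of 5. Reck entered the test only through the untreated arrays, so it had to be lower. The Sprouty genes were nearly level. Spry1 differed by 0.09 and -0.02 in the ethanol-fed and pair-fed pair, and Spry2 by -0.02 and 0.27.

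Tpm1, a tropomyosin of the actin cytoskeleton, read 6.39 and 6.21 untreated and 6.15 and 6.02 with AM21, a fitted difference of -0.21 ± 0.16. The small GTPase gene Rhob differed by 0.34 in the ethanol-fed and -0.22 in the pair-fed pair. Ppara, the fatty acid receptor that drives hepatic lipid oxidation, differed by 0.53 and -0.27. Smad7, an inhibitor of TGF-beta signalling, had the highest fitted difference of the 37 at 0.47, made up of 0.10 and 0.85. Krit1, a regulator of endothelial junctions, had the lowest at -0.46, with -0.38 and -0.53. The untreated mean of Smad7 (4.80) was under the level minimum of 5. Smad7 thus entered the test only through the AM21 arrays, where it was higher, and a gene that enters in that way had to differ. Pair differences over all 37 ran from -0.59 to 0.85.

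**Figure D1:**
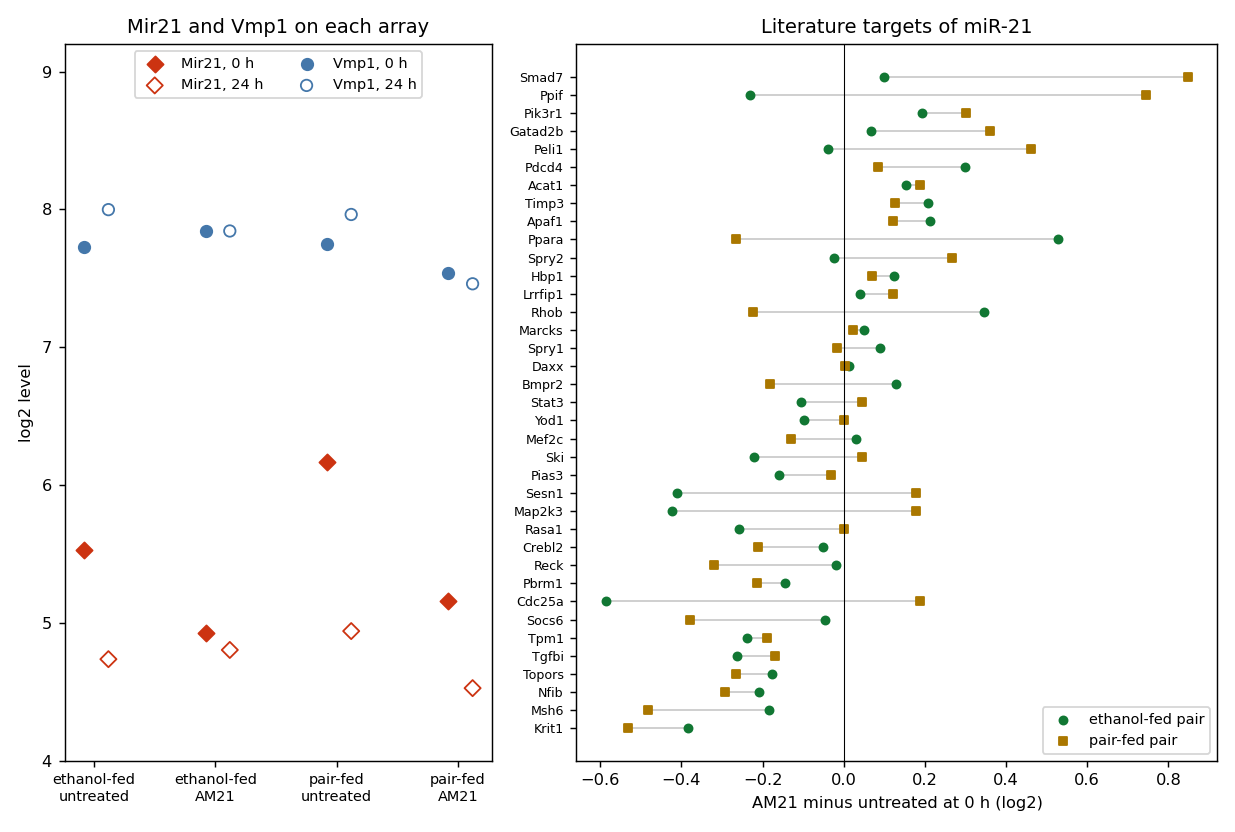
Left, log2 level of Mir21 (diamonds) and Vmp1 (circles) on each array, filled at 0 h and open at 24 h after PHx. Right, AM21 minus untreated log2 difference at 0 h for the 37 tested literature targets of miR-21, ethanol-fed pair as circles and pair-fed pair as squares, 1 array against 1. Filled diamonds at 0 h are lower on the AM21 arrays, while the targets lie on both sides of 0, between -0.59 and 0.85.

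The machinery that makes and uses microRNAs was also near level. Of 21 tested genes, 3 were higher and 7 lower in both pairs, where 22.2% and 27.2% of all tested genes were. None passed adjustment, and 1 was lower at an unadjusted p under 0.05 (limma), where 2.63% of all tested genes were. That gene was Ago4, an Argonaute protein, at 5.17 and 5.89 untreated and 4.87 and 4.75 with AM21. The AM21 mean of Ago4 (4.81) was under the level minimum of 5. Ago4 entered the test only through the untreated arrays and had to be lower, so it is no support for a difference. Dicer1, the enzyme that cuts hairpins, differed by -0.34 and 0.11, and Drosha, which releases them in the nucleus, by 0.00 and -0.17. Nucleic acid sensors and interferon response genes, fixed as lists because oligonucleotides can engage innate sensors, had medians of 0.01 (15 genes) and 0.03 (35 genes). None of either list passed adjustment. Of the interferon response list 3 genes were lower and 0 higher at an unadjusted p under 0.05 (limma), one of them being Irf7, an interferon regulatory factor, with -0.35 and -0.40. Of the nucleic acid sensors 1 was lower and 0 were higher at that level, and the shares over all tested genes were 2.63% and 1.86%.

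Across all genes the comparison found few differences. Of 8605 tested genes 4 passed the adjusted threshold of 0.05 (limma, AM21 minus untreated with diet as a term), a share of 0.0465%. They were Gimd1 and Casp12, which rose (0.0232%), and A2m and Cxcl1, which fell (0.0232%). The untreated means of Gimd1 (4.45) and Casp12 (4.76) were under the level minimum of 5. These genes entered the test only through the AM21 arrays, where they were high, and a gene that enters in that way had to differ. At an unadjusted p under 0.05 there were 386 genes, 160 higher (1.86%) and 226 lower (2.63%), together 4.49%, where 430.2 would be expected by chance. A total of 10 of 15 alternative settings gave 0 calls, so each of the 4 calls depends on the setting. Those settings are a different level minimum, leaving out the diet term, fitting all 8 arrays together, renewed quantile normalization, and leaving out any of the 4 arrays.

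Gimd1 encodes a protein with a GTPase domain of the GIMAP (immune-associated) type. Its level was 3.62 on the ethanol-fed untreated array and 5.28 on the pair-fed untreated array. It was 5.36 on the ethanol-fed AM21 array and 7.32 on the pair-fed AM21 array. Both AM21 arrays were above both untreated arrays, although the ethanol-fed AM21 array exceeded the pair-fed untreated array only narrowly. The pair differences were 1.74 and 2.04, and the fitted difference of 1.89 ± 0.16 corresponds to 3.71-fold (limma, adjusted p = 0.0122; higher in 2 of 2 pairs). The ethanol-fed untreated level was under 5, so the fold is of uncertain size. Over the 14 alternative settings in which Gimd1 was tested, its adjusted p ran from 0.00025 to 0.99988 and passed in 5. With the diet term dropped, the Gimd1 difference was 0.91 without the pair-fed AM21 array, 1.06 without the ethanol-fed untreated array, 2.72 without the pair-fed untreated array and 2.87 without the ethanol-fed AM21 array, so its size rests on every array.

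Casp12 encodes caspase-12, an inflammatory-family caspase located at the endoplasmic reticulum. The untreated levels were 4.84 in ethanol-fed and 4.68 in pair-fed liver, both under 5. The AM21 levels were 6.36 and 6.26. The pairs differed by nearly the same amount, 1.52 and 1.58, giving a fitted difference of 1.55 ± 0.16 and 2.93-fold (limma, adjusted p = 0.0171; higher in 2 of 2 pairs; from 0.0015 to 0.99988 over 14 alternative settings, passing in 5). Of 26 tested endoplasmic reticulum chaperones and unfolded protein response genes, 8 were higher and 3 lower in both pairs, against 22.2% and 27.2% of all tested genes. None passed adjustment and 0 had an unadjusted p under 0.05 (limma).

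A2m encodes alpha-2-macroglobulin, a broad protease inhibitor that is a strong acute phase protein in the rat. Its untreated levels were 7.01 in ethanol-fed and 8.38 in pair-fed liver. With AM21 they were 5.31 and 5.69. Both AM21 arrays lay below both untreated arrays, and the pair-fed pair differed more than the ethanol-fed pair. The pair differences of -1.70 and -2.69 gave a fitted difference of -2.20 ± 0.23, which is 4.59-fold lower (limma, adjusted p = 0.0171; lower in 2 of 2 pairs; from 0.000218 to 0.99988 over 15 alternative settings, passing in 4). With the diet term dropped, the A2m difference was -1.51 without the pair-fed untreated array and -2.88 without the ethanol-fed untreated array. A2m was the only 1 of 32 tested acute phase genes to pass.

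The acute phase list as a whole was level, with medians of 0.02 in both the ethanol-fed and the pair-fed pair. Of the 32 genes, 13 were higher and 10 lower in both pairs, against 22.2% and 27.2% of all tested genes. At an unadjusted p under 0.05 (limma) 4 were lower and 0 higher, against 2.63% and 1.86% of all tested genes. The other 3 of those 4 were the metallothioneins Mt2A (-0.96 and -0.52) and Mt1 (-0.62 and -0.22), which bind metals and whose near-identical sequences can share signal, and the iron-siderophore binder Lcn2 (0.03 and -1.75). Haptoglobin (Hp), a haemoglobin scavenger, differed by 0.03 and 0.11. Orm1, an acute phase glycoprotein, differed by 0.29 and 0.03.

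Cxcl1 encodes a chemokine that attracts neutrophils and is induced by NF-kB. Its untreated levels were 8.32 in ethanol-fed and 7.40 in pair-fed liver. Its AM21 levels were 5.94 and 5.85, close to each other and below both untreated arrays. The fitted difference was -1.96 ± 0.21 with pair differences of -2.37 and -1.54, or 3.88-fold lower (limma, adjusted p = 0.0171; lower in 2 of 2 pairs; from 0.000218 to 0.99988 over 15 alternative settings, passing in 4). Of the neutrophil and monocyte markers 3 passed the level minimum, and their mean level was 6.77 and 6.33 untreated and 6.72 and 6.48 with AM21. The values of 3 other genes that NF-kB induces are given beside it. Nfkbia, its feedback inhibitor, differed by -0.04 and -1.15, the monocyte chemokine Ccl2 by 0.21 and -0.73, and the adhesion molecule Icam1 by 0.26 and 0.30; these were singled out after their values had been seen. In pooled whole tissue, fewer cells of a type and less RNA per cell cannot be told apart.

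The 250 bases before the Cxcl1 start (RefSeq, GRCr8, chr14:17479322-17479571, minus strand) are shown because Cxcl1 was called and its window holds a match to the NF-kB motif searched, GGGA and TTTCC with any 1 base between them, in capitals. The match GGGAATTTCC lies 84 to 75 bases before the start. Both strands were searched, and 0.314% of 33469 rat windows of the same length hold this motif. The match is a description and is no evidence of binding in these livers.
Cxcl1 upstream window: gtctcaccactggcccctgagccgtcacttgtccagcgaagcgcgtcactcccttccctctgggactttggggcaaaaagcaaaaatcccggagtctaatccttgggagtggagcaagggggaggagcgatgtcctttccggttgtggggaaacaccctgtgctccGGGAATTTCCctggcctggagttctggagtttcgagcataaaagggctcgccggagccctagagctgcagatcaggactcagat

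**Figure D2:**
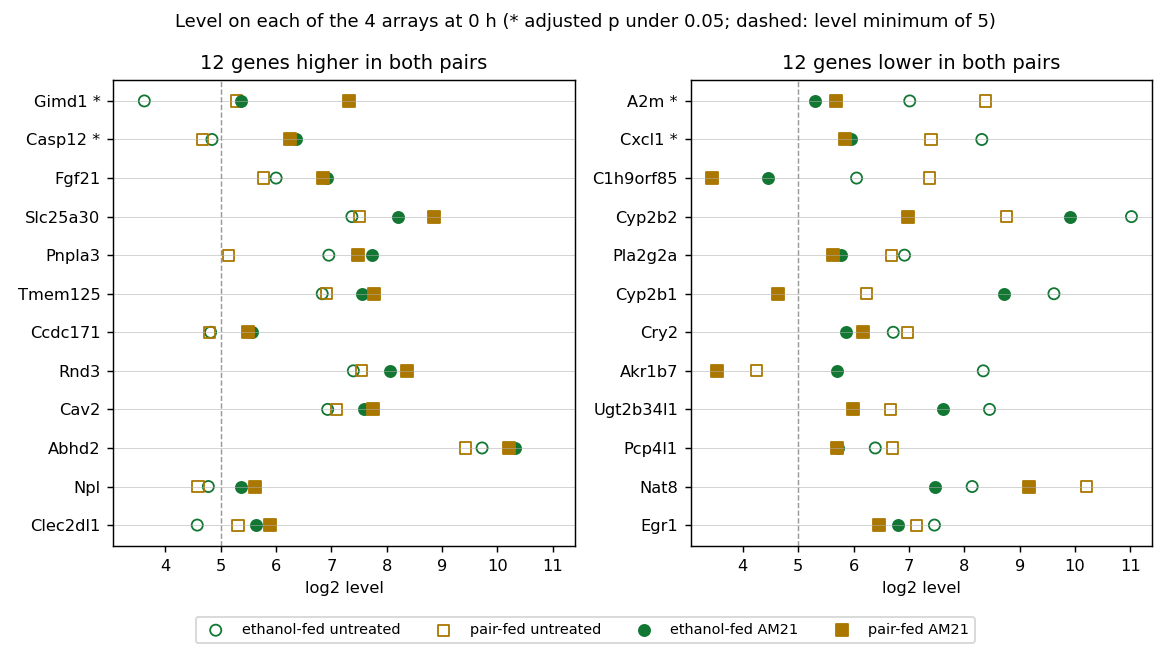
Log2 level on each of the 4 arrays at 0 h for the 12 genes highest and the 12 lowest with AM21 by the smaller pair difference, untreated as open and AM21 as filled symbols, circles for ethanol-fed and squares for pair-fed. The dashed line is the level minimum of 5, and asterisks mark adjusted p under 0.05. Gimd1 and Casp12 on the left and A2m and Cxcl1 on the right are the 4 genes that passed.

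By size alone, 35 genes differed by at least 2-fold in the ethanol-fed pair (0.407%; 15 higher, 20 lower) and 87 in the pair-fed pair (1.01%; 47 higher, 40 lower). Only 7 did so in the same direction in both pairs (0.0813%), 2 higher and 5 lower. Besides the 4 called genes these were C1h9orf85, Cyp2b2 and Pla2g2a. A further 4 genes passed 2-fold in opposite directions in the 2 diets. At 1.5-fold in both pairs 10 genes were higher, 18 lower and 24 opposite. Across the 8605 genes the differences of the 2 pairs were almost unrelated (Pearson's r = 0.03, Spearman's rank correlation = 0.01, across genes, which are not independent replicates). The pairs share no array. The differences had SDs of 0.24 in the ethanol-fed and 0.31 in the pair-fed pair, and 91.7% of genes lay within 1.5-fold of 0 in both.

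**Figure D3:**
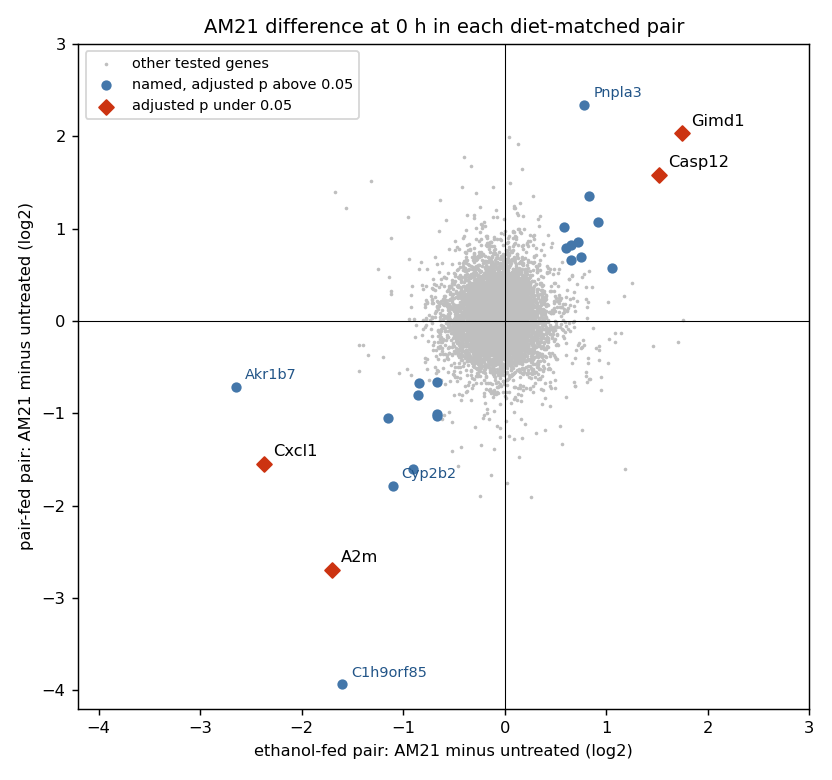
AM21 minus untreated log2 difference at 0 h of each tested gene in the ethanol-fed pair (horizontal) and the pair-fed pair (vertical), each 1 array against 1. Diamonds are the 4 genes with adjusted p under 0.05, and dark circles the other genes of the 12 highest and 12 lowest. Most of the 8605 genes form a round cloud about 0 with r = 0.03.

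The genes that were higher in both pairs without passing the test included Fgf21, Pnpla3, Slc25a30 and Abhd2. Fgf21, a liver hormone of fasting and nutrient stress, had levels of 6.0 and 5.77 untreated and 6.92 and 6.84 with AM21, with no overlap. Its fitted difference was 0.99 ± 0.16 (limma, adjusted p = 0.159; higher in 2 of 2 pairs). Pnpla3, a lipid droplet protein linked to fatty liver, read 6.95 and 5.13 untreated and 7.74 and 7.48 with AM21. The pair-fed difference of 2.34 was the larger one, against 0.78 in the ethanol-fed pair. Slc25a30, a mitochondrial carrier, read 7.37 and 7.51 untreated and 8.2 and 8.86 with AM21, and Abhd2, a lipase-like hydrolase, 9.72 and 9.42 untreated and 10.32 and 10.21 with AM21.

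The remaining 6 of the 12 highest genes differed by between 0.58 and 1.05 in each pair, and none passed. They were Tmem125, Ccdc171, Rnd3, Cav2, Npl and Clec2dl1. Rnd3, an atypical small GTPase that loosens the actin cytoskeleton, differed by 0.66 and 0.82. Cav2, a caveolin, differed by 0.65 and 0.66. For all 6 the untreated and AM21 groups did not overlap, which the choice of genes favours and which is no separate support. The untreated means of Npl (4.68), Ccdc171 (4.81) and Clec2dl1 (4.94) were under the level minimum of 5. Those genes entered the test only through the AM21 arrays, where they were high, so they had to differ.

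On the lower side, the genes that did not pass included a pair of drug-metabolising enzymes. Cyp2b2 and Cyp2b1 are the phenobarbital-inducible P450s of rat liver, controlled by the nuclear receptor CAR. Cyp2b2 read 11.02 in ethanol-fed and 8.77 in pair-fed untreated liver, and 9.92 and 6.98 with AM21. The difference between the diets was larger than that with AM21, so the groups overlapped across diets although both pairs were lower, by -1.10 and -1.78 (fitted -1.44 ± 0.19; limma, adjusted p = 0.0803; lower in 2 of 2 pairs). Cyp2b1 read 9.62 and 6.24 untreated and 8.71 and 4.63 with AM21, with a fitted difference of -1.26 ± 0.20 (adjusted p = 0.153). The 2 genes are near-identical, and their probe sets can share signal, so they do not count as separate observations.

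The upstream windows of these genes show how alike they are (RefSeq, GRCr8, plus strand, chr1:90645869-90646118 for Cyp2b1 and chr1:90722031-90722280 for Cyp2b2). Aligned without gaps at an offset of 17 bases, 225 of 233 bases were identical (96.6%). Capitals mark the match TTGCATAA to the C/EBP motif TTGCNNAA, at 70 to 63 bases before the start in Cyp2b1 and 87 to 80 in Cyp2b2. That motif, searched on both strands, occurs in 9.22% of rat windows of this length.
Cyp2b1 upstream window: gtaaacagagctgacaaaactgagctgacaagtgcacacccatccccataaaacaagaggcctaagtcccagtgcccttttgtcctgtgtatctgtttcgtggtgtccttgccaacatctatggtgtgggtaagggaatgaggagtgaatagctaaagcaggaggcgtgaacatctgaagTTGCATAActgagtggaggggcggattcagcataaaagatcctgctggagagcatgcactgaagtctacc
Cyp2b2 upstream window: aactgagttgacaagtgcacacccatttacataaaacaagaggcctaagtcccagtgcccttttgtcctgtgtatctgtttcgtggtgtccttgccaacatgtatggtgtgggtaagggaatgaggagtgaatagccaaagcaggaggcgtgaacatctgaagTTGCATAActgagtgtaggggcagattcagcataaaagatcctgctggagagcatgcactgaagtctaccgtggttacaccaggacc

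The list of CAR and PXR targets, which holds both Cyp2b genes, had a median fitted difference of -0.17 over 22 genes, against -0.01 over all tested genes. Its medians were -0.05 in the ethanol-fed and -0.25 in the pair-fed pair. Of the 22, 9 were lower and 1 higher in both pairs, against 27.2% and 22.2% of all tested genes. None passed adjustment, and 5 were lower and 0 higher at an unadjusted p under 0.05 (limma), against 2.63% and 1.86% of all tested genes. The 5 were Cyp2b2, Cyp2b1, Cyp3a9, Ces2e and Nr1i3. Nr1i3, which is CAR itself, read 7.38 and 7.78 untreated and 6.86 and 6.36 with AM21. Ces2e, a carboxylesterase, read 8.24 and 5.26 untreated and 6.89 and 4.89 with AM21. Nr1i2, which encodes PXR, differed by -0.08 and 0.01. Without the ethanol-fed untreated array and without the diet term the list median was 0.12, and without the pair-fed AM21 array 0.09, both of the opposite sign.

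C1h9orf85, an uncharacterised gene, showed the largest fitted difference of the named genes, -2.76 ± 0.42. It read 6.05 and 7.36 untreated and 4.45 and 3.44 with AM21, the latter both under 5, and the pairs differed unequally, by -1.60 and -3.93 (limma, adjusted p = 0.153). Pla2g2a, a secreted phospholipase A2 of inflammation, read 6.92 and 6.68 untreated and 5.77 and 5.63 with AM21. Its differences of -1.15 and -1.05 were nearly equal (fitted -1.10 ± 0.16; limma, adjusted p = 0.109; lower in 2 of 2 pairs). Akr1b7, an aldo-keto reductase, read 8.34 and 4.24 untreated and 5.69 and 3.53 with AM21, with the larger difference in the ethanol-fed pair (-2.65 against -0.71). The AM21 means of C1h9orf85 (3.94) and Akr1b7 (4.61) were under the level minimum of 5. Both genes entered the test only through the untreated arrays, where they were higher, and a gene that enters in that way had to differ.

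Cry2, a repressor of the circadian clock, read 6.72 and 6.97 untreated and 5.86 and 6.18 with AM21, a fitted difference of -0.83 ± 0.16 that did not pass. Egr1, an immediate early transcription factor, read 7.46 and 7.13 untreated and 6.79 and 6.46 with AM21, with -0.67 and -0.66 in the pairs. Over 20 immediate early genes the median was -0.02, with 2 higher and 5 lower in both pairs, against 22.2% and 27.2% of all tested genes. Egr1 and Myc (-0.79 and -0.40) were the 2 with an unadjusted p under 0.05 (limma), both lower. Over all tested genes 2.63% were lower and 1.86% higher at that level. The other 3 of the 12 lowest genes, Ugt2b34l1, Pcp4l1 and Nat8, had pair differences between -0.67 and -1.03.

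Proliferation genes were sparse before surgery. Of 33 G2 and mitosis genes with a probe set, 11 passed the level minimum, 7 of them lower and 0 higher in both pairs (27.2% and 22.2% over all tested genes), and none passed adjustment. Their medians were -0.54 in the ethanol-fed and -0.21 in the pair-fed pair. At an unadjusted p under 0.05 (limma) 4 were lower and 0 higher, against 2.63% and 1.86% of all tested genes. Top2a, the topoisomerase that untangles replicated DNA, read 6.56 and 5.14 untreated and 5.52 and 4.58 with AM21. Mki67, the Ki-67 antigen of cycling cells, read 6.21 and 4.95 untreated and 5.60 and 4.58 with AM21. For both genes the ethanol-fed AM21 array lay above the pair-fed untreated array, so the groups overlapped across diets. Many of the 11 passed the level minimum through the ethanol-fed untreated array, where they were highest, so their count is no support for a difference. S phase genes, 19 tested, had medians of -0.09 and 0.12.

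The third question was whether the diet altered the AM21 difference. Each diet has 1 array of each treatment, so a difference between the diets has no replicate check and was not tested. In the pair-fed pair, 29 genes of fatty acid and triglyceride synthesis had a median of 0.38, against 0.03 over all genes in that pair. In the ethanol-fed pair their median was 0.00, against -0.05 over all genes. For 22 cholesterol synthesis and uptake genes the medians were 0.43 and -0.14.

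Single lipogenic enzymes show the pattern of levels. Acly, which makes cytosolic acetyl-CoA, read 8.76 on the pair-fed untreated array and 9.54, 9.66 and 9.90 on the ethanol-fed untreated, ethanol-fed AM21 and pair-fed AM21 arrays. Scd, the stearoyl-CoA desaturase, read 9.92 on the pair-fed untreated array and 10.94, 10.74 and 10.99 on the same other arrays. Gpam, which starts glycerolipid synthesis, read 6.78 there and 9.47, 9.07 and 8.55 on the others. In each case the pair-fed untreated array was the lowest of the 4 and the other 3 were closer to each other. The same order held for Plin2, which coats lipid droplets, at 8.62 against 10.23, 10.11 and 10.07. Without the pair-fed untreated array and without the diet term, the fitted median of the fatty acid and triglyceride list was -0.02 in place of 0.19. Acly, Scd and Plin2 were singled out after their values had been seen.

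Clock genes also differed between the arrays. Bmal1, the activator of the circadian clock, read 4.26 on the pair-fed untreated array, under 5, and 7.53, 7.19 and 5.94 on the ethanol-fed untreated, ethanol-fed AM21 and pair-fed AM21 arrays. Nr1d1, the clock repressor that opposes it, read 6.99 on the ethanol-fed untreated array and 8.75, 9.52 and 9.53 on the ethanol-fed AM21, pair-fed untreated and pair-fed AM21 arrays. The 13 tested core clock genes had medians of -0.14 in the ethanol-fed and 0.22 in the pair-fed pair, with 2 higher and 3 lower in both (22.2% and 27.2% over all tested genes). None passed adjustment, and 2 were higher and 1 lower at an unadjusted p under 0.05 (limma), where 1.86% and 2.63% of all tested genes were. The time of day at which each cohort was sampled is not given in the sources used here, and its part in the lipid differences was not tested. Bmal1 and Nr1d1 were singled out after their values had been seen.

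Of the genes with the largest difference between the diets, Elovl6, which lengthens palmitate, read 7.20 untreated and 5.89 with AM21 in ethanol-fed liver, and 4.60 untreated and 6.11 with AM21 in pair-fed liver. Cish, a feedback inhibitor of cytokine and growth hormone signalling, read 7.10 and 5.54 in ethanol-fed and 6.59 and 7.80 in pair-fed liver. Sap18, a subunit of a histone deacetylase complex, went the opposite way, from 5.49 to 6.68 in ethanol-fed and from 6.79 to 5.19 in pair-fed liver. Sult2a1, a sulfotransferase of steroids and bile acids, read 7.91 and 8.17 in ethanol-fed and 10.28 and 8.38 in pair-fed liver. Its pair-fed untreated array stood apart from the other 3.

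**Figure D4:**
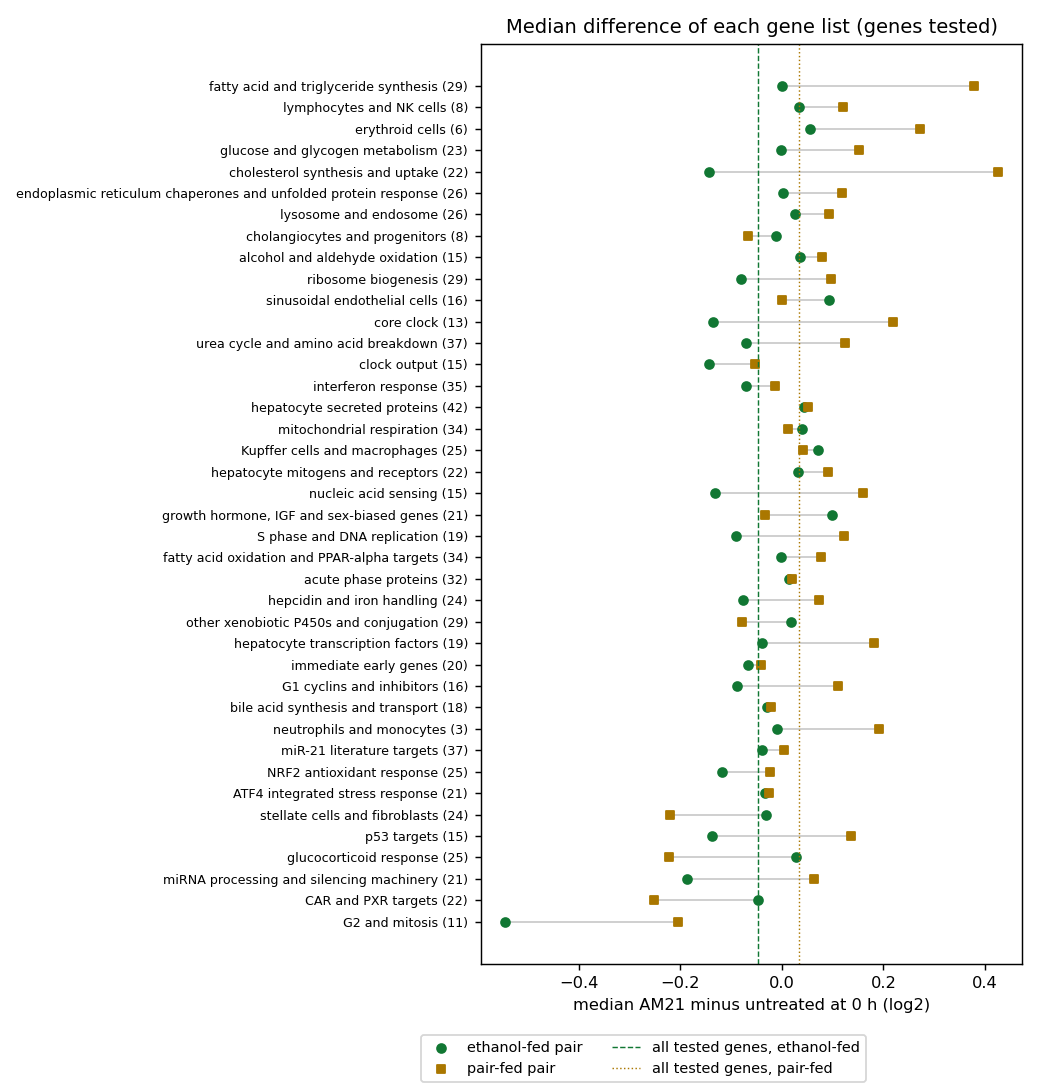
Median AM21 minus untreated log2 difference at 0 h of each of the 40 gene lists in the ethanol-fed pair (circles) and the pair-fed pair (squares), with the number of genes tested in parentheses. Vertical lines are the medians of all tested genes, -0.05 and 0.03. The widest gaps between the diets include the cholesterol list (-0.14 and 0.43) and the fatty acid and triglyceride list (0.00 and 0.38).

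Markers of other liver cells differed little as lists. Kupffer cell and macrophage markers (25 tested) had medians of 0.07 and 0.04, with summed levels over all 26 with a probe set of 198.5 and 187.3 untreated and 198.1 and 187.6 with AM21. Sinusoidal endothelial markers (16 tested) had medians of 0.09 and 0.00. Stellate cell and fibroblast markers (24 tested) had medians of -0.03 and -0.22, with 11 lower and 3 higher in both pairs, against 27.2% and 22.2% of all tested genes. None passed adjustment, and 3 were lower and 1 higher at an unadjusted p under 0.05 (limma), against 2.63% and 1.86% of all tested genes. Among the lower, Pdgfra, the receptor that marks stellate cells, differed by -0.37 and -0.43, and Hgf, the hepatocyte growth factor they secrete, by -0.42 and -0.32. Some other markers of the list did not follow these. Lrat differed by 0.06 and -0.05, Reln by 0.39 and -0.31, Colec11 by 0.21 and -0.06, and Rgs5 by 0.20 and 0.28. The summed level of all 33 stellate and fibroblast markers was 204.4 and 206.2 untreated and 203.7 and 199.9 with AM21, and its part in the differences given above was not tested.

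The last comparison asked whether the AM21 difference at 0 h was also present 24 h after PHx, when the second injection had been given too. The same animals gave liver at both times, so the change within each pool was fitted. No gene passed adjustment (limma, AM21 at 24 h minus AM21 at 0 h; smallest adjusted p = 0.15), and 559 genes (6.50%) had an unadjusted p under 0.05. A2m was at 12.05 and 12.14 untreated and 11.56 and 11.55 with AM21 at 24 h, and the pair differences were -0.49 and -0.60 in place of -1.70 and -2.69 (difference of differences 1.66 ± 0.25; limma, adjusted p = 0.210; smaller at 24 h in 2 of 2 pairs). Cxcl1 read 8.79 and 8.04 untreated and 9.08 and 7.73 with AM21 at 24 h, so its pairs differed by 0.30 and -0.31, in opposite directions.

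The higher genes were closer to the untreated level at 24 h as well. Gimd1 differed by 0.76 and 0.24 at 24 h and Casp12 by 0.66 and -0.32, against at least 1.52 in each pair at 0 h. For Casp12 the untreated levels at 24 h were 6.22 and 6.85, above those at 0 h, and the AM21 levels were 6.88 and 6.53. Pnpla3, at 0.78 and 2.34 before surgery, differed by -0.22 and -0.19 after it. None of these changes in the difference passed (limma, adjusted p of 0.229 for Gimd1, 0.322 for Casp12 and 0.312 for Pnpla3). The 24 h minus 0 h difference uses the 0 h arrays on which these genes were picked, so a smaller difference at 24 h is favoured by that choice.

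The smallest p in the test of the times belonged to Cyp2b2. Its pair differences were -1.10 and -1.78 at 0 h and 1.59 and -0.08 at 24 h, at levels of 6.45 and 5.66 untreated and 8.04 and 5.58 with AM21 after PHx. The difference of differences was 2.20 ± 0.26 (limma, adjusted p = 0.15, in 2 of 2 pairs). The near-identical Cyp2b1 did not share the positive ethanol-fed difference at 24 h. It was still lower with AM21 there, by -0.47 and -0.96, with pair-fed levels of 3.82 untreated and 2.86 with AM21, both under 5. Hbb-b1, a beta-globin gene, and Fabp4, a fatty acid carrier of adipocytes and endothelium, were near level at 0 h (-0.04 and 0.28, and -0.18 and -0.06) and lower with AM21 at 24 h (-1.38 and -1.31, and -1.37 and -1.59). Mir21 differed by 0.07 and -0.41 at 24 h, where its levels were all under 5. Tmem125, a transmembrane protein of unknown function, kept its sign, with 0.73 and 0.86 at 0 h and 0.58 and 0.61 at 24 h.

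**Figure D5:**
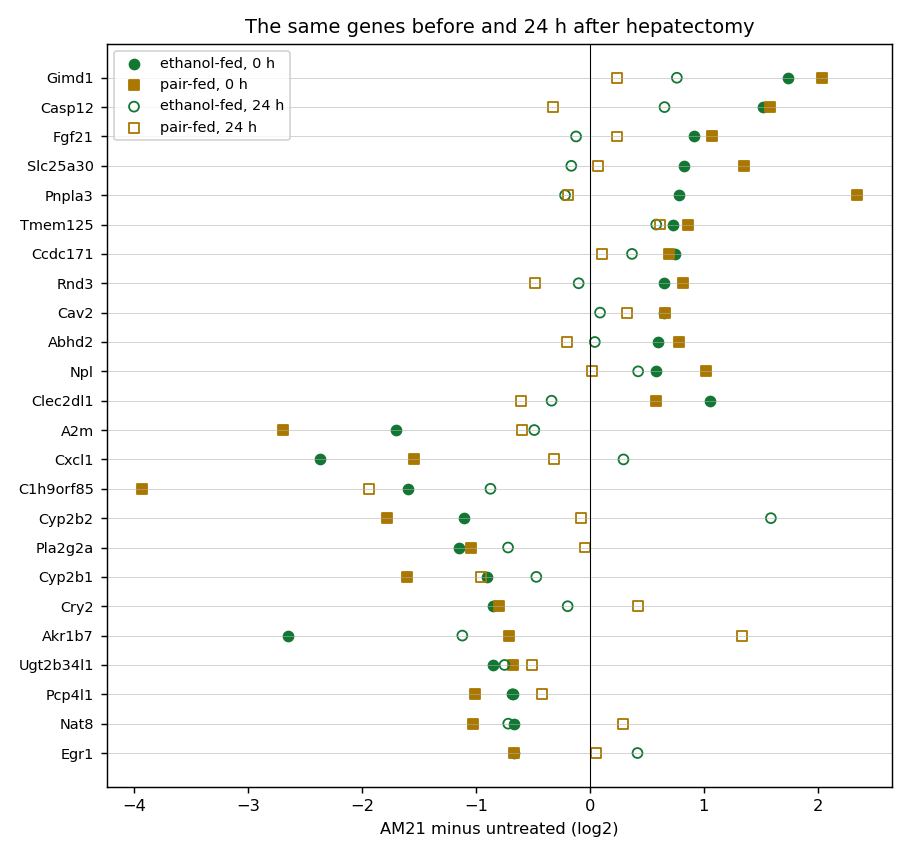
AM21 minus untreated log2 difference of the 12 highest and 12 lowest genes at 0 h (filled) and at 24 h after PHx (open), circles for the ethanol-fed and squares for the pair-fed pair, each 1 array against 1. The genes were chosen on the filled symbols. A2m lies at -1.70 and -2.69 before and at -0.49 and -0.60 after PHx.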

How the data were processed

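The deposited values are log2 levels per probe set, computed by the authors in Affymetrix Expression Console using RMA, which corrects background, normalizes arrays together and summarises probes, according to the submitters' processing notes (versions not given in the sources used here). Per the labels' protocols, pooled RNA was amplified and labelled with biotin. RMA makes array distributions alike, which would hide a shift common to most genes. Arrays have no depth, and precision is limited by their number.

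Of 36685 probe sets, 18511 carry 1 gene symbol, 575 several and 17599 none; 18394 were found by identifier in the GRCr8 RefSeq gene table. The probe set brightest over the 4 arrays at 0 h stood for a gene, and genes with a mean of at least 5 were tested. limma 3.58.1 in R 4.3.3 (lmFit, eBayes, 1 residual degree of freedom) fitted AM21 minus untreated with diet as a term, with Benjamini-Hochberg adjustment over all 8605 genes and a threshold of 0.05. The 24 h comparison fitted within-pool changes in the same way. The fits were tested on simulated data. With 1 pool per group, the SEs and p-values rest partly on how far the 2 pairs agree. They rest more on a spread that eBayes borrows across all genes, with 7.71 prior degrees of freedom against 1 residual. A small SE for a gene is therefore not a measure of agreement between replicates.

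The members and the 40 gene lists were chosen with earlier results of these data known. Genes named were the 12 highest and 12 lowest by the smaller pair difference in the same direction (called genes first), up to 4 per list, the 5 at each end of the difference between diets, the 5 of smallest p in the 24 h test, and a fixed miR-21 set. Uncharacterised symbols (LOC, RGD and the like) were passed over. Alternatives varied the level minimum, diet term, arrays fitted, prior, normalization and probe set choice.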

Additional observations from a re-analysis of the deposited data

Results flagged for a closer look

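In 4 genes the AM21 difference at 0 h was at least 2-fold in opposite directions in the 2 diets. The values below are the ethanol-fed minus the pair-fed difference on the log2 scale. Each rests on 1 array against 1 in each diet, and the difference between the diets was not tested. RGD1309362, an uncharacterised gene, gave -3.07, from 8.14 untreated to 6.47 with AM21 in ethanol-fed and from 6.17 to 7.56 in pair-fed liver. Elovl6 gave -2.83 and Cish -2.78. Sap18 gave 2.78. RGD1309362 was named after its values had been seen.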

How the results depend on the processing

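The 4 genes called at 0 h became 0 with no level minimum, with a minimum of 4 or 6, without the diet term, with all 8 arrays in the fit and with renewed quantile normalization. They became 2 (Gimd1 and Casp12) with a robust prior and 18 with an intensity trend. Leaving out any 1 of the 4 arrays, which also drops the diet term because no residual degree of freedom is left, gave 0 calls each time. The settings with 0 calls had from 95 to 713 genes at an unadjusted p under 0.05 (limma). The causes were not tested. Genes past the fold in both pairs in the same direction numbered 7 at 2-fold and 28 at 1.5-fold. Under the leave-one-out settings these log2 differences changed sign, the diets no longer being matched: Cyp2b2 reached 0.0220, Cyp2b1 0.43 and 0.78, Akr1b7 0.37, Ugt2b34l1 0.13 and 0.0472, Nat8 0.18 and 0.0045, Vmp1 0.10, Spry1 -0.0764 and -0.0232, Reck 0.0079 and 0.16, Rhob -0.0549 and -0.11, and Ppara -0.29. Gimd1, Casp12, A2m, Cxcl1 and Mir21 kept their sign under every alternative run, but leaving out single arrays moved Gimd1 between 0.91 and 2.87, A2m between -2.88 and -1.51 and Mir21 between -1.13 and -0.48. With 1 pool per group, differences between animals were not measured.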

Other observations

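Some liver functions not described above had values that did not pass adjustment (limma) and are given as they stand. Lysosome and endosome genes, 26 tested, were higher in both pairs for 15 and lower for 3, where 22.2% and 27.2% of all tested genes were, with list medians of 0.03 and 0.09. The lysosomal protease gene Ctsd differed by 0.23 and 0.64. In bile acid synthesis and transport, 18 tested, 5 were higher and 7 lower in both pairs, and 4 were lower at an unadjusted p under 0.05, where 2.63% of all tested genes were. Among them were Cyp7b1, an oxysterol hydroxylase, with -0.42 and -0.80, and Nr0b2, the bile acid-induced repressor SHP, with -0.24 and -1.34.

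Igfbp1, a liver-secreted binder of insulin-like growth factors that insulin lowers, read 10.22 and 8.66 untreated and 9.97 and 6.76 with AM21, a pair-fed difference of -1.90 against -0.24 in ethanol-fed liver. Egfr, the receptor for epidermal growth factor, differed by 0.49 and 0.41, and Inhbe, which encodes a hepatic activin subunit, by 0.46 and 0.85. Timd4, a marker of resident Kupffer cells, differed by -0.56 and -0.55, while Cd68, a general macrophage marker, differed by 0.27 and 0.33. Other markers of that list did not follow Timd4. Clec4f differed by -0.275 and 0.359, Cd5l by 0.15 and 0.21, Marco by -0.20 and 0.21, and Vsig4 by 0.07 and -0.35. Of the 25 tested Kupffer cell and macrophage markers, 8 were higher and 4 lower in both pairs, against 22.2% and 27.2% of all tested genes. Mitochondrial respiration genes, 34 tested, had medians of 0.04 and 0.01.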
